A study of Arabidopsis thaliana with 26 samples.

Results

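Developing leaves of Arabidopsis thaliana were compared after 24 h and after 12 h of a treatment that the study's title names elevated CO2 with ambient light. The comparison used 8 of the 26 arrays of the series, 4 titled 24 h and 4 titled 12 h, chosen by their titles alone. All plants were Col-0 (stock code N1092), a laboratory accession of the species, and the leaves sampled were those at insertions 19 to 21, which the labels call developing. All groups were grown on compost in a growth room kept at 20 °C, 50% humidity and a day of 10 h of light, whose atmosphere the labels give as normal. The labels call the treatment E with its hours. No gene was altered in either group. Total RNA was read on ATH1 arrays, on which a set of short probes reads each transcript. The remaining 18 arrays held developing leaves after 2, 4, 48 and 96 h, with 4 arrays for each time, and 2 arrays of mature leaves sampled at 24 h. They entered the fit to estimate the spread, and the 2 h and 48 h arrays served to ask which 12 h states had reversed by 24 h.

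Untreated plants are not analysed here, so nothing in the comparison tests elevated against normal CO2. The groups differ in hours of treatment. The sources used here give no clock times of sampling, and if treatment began at 1 time of day, hours of treatment and time of day cannot be told apart. Replicates are numbered, and nothing in the labels says that they came from separate plants, so a p-value reflects the spread among these arrays, part or all of which may be technical.

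Leaf cells run different programmes at different times of day. In the light they fix carbon and store part of it as starch in the chloroplast, and in the dark they degrade that starch through phosphorylation of the glucans and disproportionation of maltotriose to supply sucrose. A circadian clock of mutually repressing transcription factors sets the phase of many transcripts, including those of light-harvesting proteins. When carbohydrate runs short, the kinase SnRK1 and the recycling of proteins and amino acids take over part of the energy supply. Leaves that are still expanding also make ribosomes, chromatin and cell wall, and the transcripts for these processes follow the supply of sugar.

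The transcriptome differed widely between the 2 times. A probe set was called when its adjusted p was below 0.05. Of 16154 probe sets tested, 4729 were called, which is 29.3%. At 24 h 2105 were higher, 13.0% of those tested, and 2624 were lower, 16.2%. A change of at least 2-fold on the log2(signal + 16) scale was reached by 310 called probe sets that were higher (1.92%) and 263 that were lower (1.63%). All 4 arrays at 24 h lay above all 4 at 12 h for 11.7% of probe sets and below them for 14.7%. These shares are the background against which the gene groups are read. The median log2 change of all tested probe sets was -0.04.

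Most of the large differences were a return toward or past the level at 2 h. For every probe set the mean at 2 h was placed on the step from the 12 h mean to the 24 h mean. The 2 h values entered neither the 24 h nor the 12 h mean, although the 2 h arrays did enter the estimate of the spread and the filter on dim probe sets. Among the 573 probe sets changed at least 2-fold, the 2 h mean lay nearer to the 24 h mean than to the 12 h mean in 480, which is 83.8%, against 62.9% of all tested probe sets. In 106 of the 573 the 2 h mean lay beyond the 24 h mean. Any margin counts here, however small, and no test of 24 h against 2 h entered, so these are not a count of incomplete returns. The 2 h mean lay between the 12 h mean and the middle of the step in 87. It lay beyond the 12 h mean in 6, by 0.03 to 0.30 on the log2 scale, and limma called 0 of these 6 in the comparison of 12 h with 2 h, with 0 at an unadjusted p under 0.05. Over all 4729 called probe sets, 76.8% had the 2 h mean nearer to 24 h and 4.6% had it beyond 12 h. A test of the mid-course state set 12 h against the mean of 2 h and 24 h. The comparison of 12 h with 2 h, which shares the 12 h arrays, called 28.6% of probe sets, and that of 24 h with 2 h, which shares the 24 h arrays, called 9.21%. The mid-course test called 5360 probe sets (33.2%), with 18.2% of those tested higher at 12 h and 15.0% lower. It also responds when 12 h differs from 2 h alone or from 24 h alone, so its count is not a count of reversals.

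**Figure D1:**
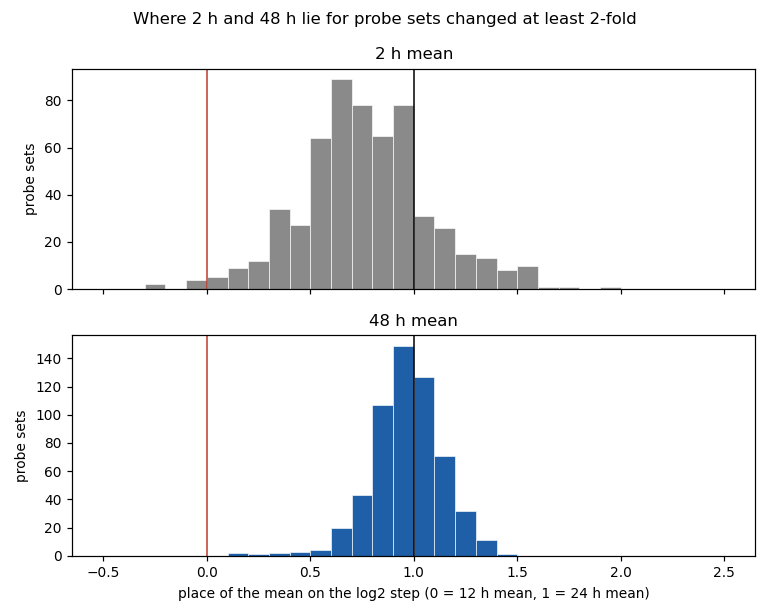
Histograms of the place of the 2 h mean (upper panel) and the 48 h mean (lower panel) for the 573 probe sets called with at least a 2-fold difference between 24 h and 12 h. The horizontal axis is the place on the log2(signal + 16) step, where 0 (red line) is the 12 h mean and 1 (black line) the 24 h mean, and the vertical axis counts probe sets. The 2 h means have a median place of 0.75 and the 48 h means one of 0.97.

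For most probe sets changed at least 2-fold, the 48 h mean lay near the 24 h mean. In 565 of the 573 (98.6%) it lay nearer to the 24 h mean than to the 12 h mean, with a median place of 0.97. The share over all tested probe sets was 68.5%. The direct comparison of 48 h with 24 h called 0 probe sets in limma, while 1655 had an unadjusted p under 0.05. The 4 h mean was nearer to 24 h in 48.5% of the 573, below the 56.5% of all tested probe sets.

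Names limit what can be described. Of the 20 probe sets with the largest changes, 18 are not listed with a gene in the annotation used here, and they are counted but not named. The largest rise was that of probe set 258239_at, from 25.7, 5.83, 6.25 and 24.8 at 12 h to 4058, 1984, 2529 and 2457 at 24 h. Its mean at 2 h was 1819. Probe set 267461_at had the largest fall, from 1077, 706, 746 and 947 to 31.2, 16.3, 12.9 and 6.92, with a mean of 16.7 at 2 h. The first ended above its 2 h mean and the second at about its 2 h mean. Of the 573 probe sets with at least a 2-fold change, 241 carry 1 gene and 327 are not listed.

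The arrays of both groups had a trimmed mean signal of 100 and medians between 42.9 and 46.1 at 12 h and between 41.7 and 46.4 at 24 h. The first 24 h array stood apart from the rest: its bacteriophage spike-in control read 6451, against 2081 to 2848 on the other 24 h arrays and 1871 to 2455 at 12 h, and its 25S ribosomal RNA control read 4449 against a median of 66.9. The ratio of 3′ to 5′ actin signal, a measure of RNA integrity, was 1.51 to 1.81 at 12 h and 1.63 to 2.17 at 24 h. Markers of developing leaf summed to 1168 to 1310 at 12 h and 1208 to 1289 at 24 h over the 7 of 13 with a probe set, of which 2 were higher and 2 lower at 24 h. The 3 mature and senescing leaf markers with a probe set summed to 56.6 to 74.3 at 12 h and 36.8 to 56.4 at 24 h, with SAG101 lower. The guard cell marker FMA, the phloem marker SWEET11 and the root marker EXPA7 were not called, the trichome marker TRY was higher, and no xylem or flower marker on the list had a probe set. In whole leaves, a change in the number of cells of a type and a change in RNA per cell cannot be told apart.

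The 3 called genes of the evening clock and clock output lists, GI, CCL and COR27, reversed. GI was the only tested evening gene of 13 listed, and 3 of 19 listed outputs were tested. The other output tested, CCR2, was not called (log2 change 0.10), and the gene table gives that locus, AT1G80820, as a cinnamoyl-CoA reductase that shares its symbol with a clock-controlled gene. GI, GIGANTEA, an evening gene of the clock that also promotes flowering, read 18.8, 9.85, 12.6 and 5.35 at 12 h and 59.3, 44.3, 41.9 and 41.8 at 24 h. The ranges did not overlap, and the first array at 24 h was the highest. GI rose by 1.20 on the log2 scale (SE 0.12, adjusted p = 1.5e-08). Its 2 h mean was 56.6 ± 5.52 (SD, n = 4) (24 h minus 2 h -0.21 on the log2 scale, SE 0.12, adjusted p = 0.33), and its 4 h mean was 161 ± 13.5 (SD, n = 4).

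CCL, named for its similarity to a clock-controlled gene, stood at 1543, 1701, 1554 and 1472 at 12 h and 85.7, 65.5, 77.0 and 94.9 at 24 h. Every 12 h array was more than an order of magnitude above every 24 h array. The log2 change was -4.04 (SE 0.14, adjusted p = 9.1e-19). At 24 h CCL was also below its 2 h mean of 273 ± 21.8 (SD, n = 4) (24 h minus 2 h -1.58 on the log2 scale, SE 0.14, adjusted p = 1.1e-08). COR27, a cold-regulated gene that also acts on the clock, read 158, 133, 138 and 154 at 12 h and 6.65, 1.39, 1.96 and 1.75 at 24 h. It was raised at 12 h and near the bottom of the scale at 2 h and 24 h, and its 2 h mean was 1.49 ± 0.54 (SD, n = 4) (log2 change -3.10, SE 0.12, adjusted p = 3.4e-17). Over the 3 tested outputs the median log2 difference from 12 h was -2.46 at 2 h but -0.62 at 4 h.

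Regulators of the clock's period moved both ways. TIC, TIME FOR COFFEE, a nuclear regulator of the clock, fell from 323 ± 38.4 to 188 ± 37.6 (SD, n = 4) (log2 change -0.75, SE 0.15, adjusted p = 0.00051). XCT, XAP5 CIRCADIAN TIMEKEEPER, rose from 47.0 ± 2.74 to 67.6 ± 7.84 (SD, n = 4) (log2 change 0.41, SE 0.11, adjusted p = 0.0049). Of 5 tested genes of this kind, 2 were higher, 1 lower and 2 not called. None of 13 listed morning genes of the clock had a tested probe set with a single gene, so the morning side of the clock is not described here.

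**Figure D2:**
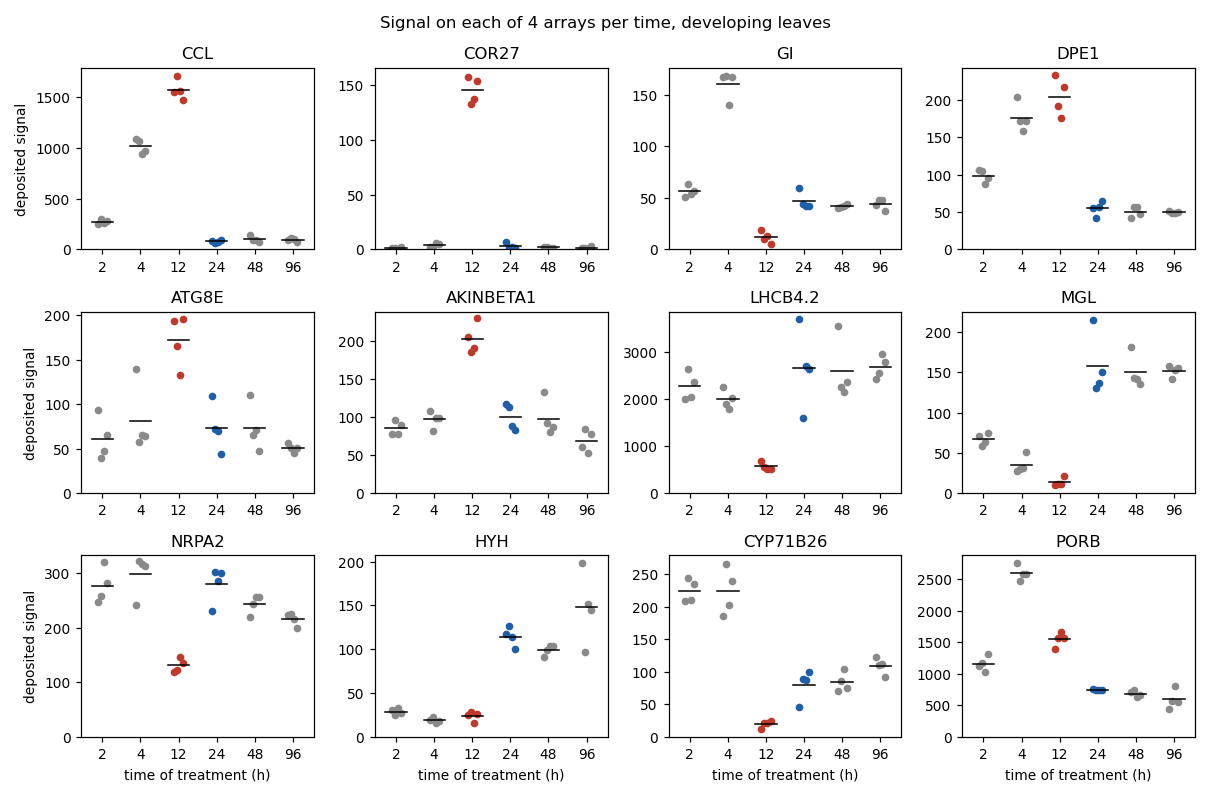
Deposited signal (vertical axis, linear, starting at 0) of 12 genes in developing leaves at each time of treatment in hours (horizontal axis, equally spaced positions). Points are the 4 arrays per time and black bars their means, with 12 h in red, 24 h in blue and the other times in grey. CCL, COR27, DPE1, ATG8E and AKINBETA1 are high at 12 h, NRPA2 and LHCB4.2 are low at 12 h, HYH is low through 12 h and higher from 24 h, and CYP71B26 regains part of its 2 h level.

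Several of the other large falls had the same form, high at 12 h on all 4 arrays and low again at 24 h. AT3G15630 read 342, 358, 397 and 332 at 12 h and 45.7, 59.7, 52.4 and 53.1 at 24 h. Its levels at 24 h lay around the 2 h mean of 55.0 ± 7.68 (SD, n = 4), and the log2 change was -2.44 (SE 0.10, adjusted p = 2.1e-16). AT4G32340 fell from 261 ± 50.4 to 19.8 ± 6.10 (SD, n = 4) (log2 change -2.95, SE 0.15, adjusted p = 5.7e-15), with a 2 h mean of 24.6 ± 6.62 (SD, n = 4). Neither gene has a name beyond its locus code in the gene table.

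Of the 12 largest falls among named genes, 8 ended within 0.25 of the step of the 2 h mean and 4 ended lower than that. Among the latter, AT1G56300 dropped to 10.8 ± 2.22 (SD, n = 4) at 24 h from a 12 h mean of 187 ± 11.0 (SD, n = 4), below its 2 h mean of 57.2 ± 8.05 (SD, n = 4) (24 h minus 2 h -1.45 on the log2 scale, SE 0.14, adjusted p = 3.2e-08). AT4G30660 read 599, 433, 477 and 454 at 12 h and 74.3, 100.2, 83.8 and 96.9 at 24 h, and its 24 h mean was below the 2 h mean of 308 ± 26.8 (SD, n = 4) (24 h minus 2 h -1.63 on the log2 scale, SE 0.13, adjusted p = 2.3e-09). All of the comparisons with 2 h share the 24 h arrays with the comparison with 12 h, so their values are set side by side only.

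Of the 4 starch breakdown genes tested, 2 were high at 12 h and fell. DPE1, the chloroplast disproportionating enzyme that acts on maltotriose, read 233, 192, 176 and 218 at 12 h and 55.8, 42.4, 57.3 and 65.0 at 24 h. The groups were separated by a wide gap, and the log2 change was -1.64 (SE 0.11, adjusted p = 1.8e-12). AT5G26570, which the gene table names PWD, the phosphoglucan water dikinase that primes starch granules for attack, read 412, 424, 430.4 and 369.6 at 12 h and 139, 149, 139 and 141 at 24 h. It fell by 1.43 (SE 0.10, adjusted p = 1e-11), to a level close to its 2 h mean of 148 ± 16.3 (SD, n = 4). DPE1 went below its 2 h mean of 98.6 ± 8.88 (SD, n = 4) (24 h minus 2 h -0.69 on the log2 scale, SE 0.11, adjusted p = 6.7e-05). The other 2 tested genes of the list were not called. Neither of the 2 tested starch synthesis genes was called.

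Of 8 tested genes that respond to sugar starvation, 4 fell, 1 rose and 3 were not called. AKINBETA1, a regulatory subunit of the SnRK1 kinase, read 205, 185, 190.2 and 229 at 12 h and 118, 114, 88.2 and 82.6 at 24 h. The lowest array at 12 h was above the highest at 24 h, and the log2 change was -0.91 (SE 0.14, adjusted p = 6.4e-06). The level at 24 h was near the 2 h mean of 85.5 ± 8.87 (SD, n = 4). MCCA, IVD and AT4G33150 were the other members that fell. BZIP53, a transcription factor gene, was the member that rose (by 0.28), and its call was lost without the third or the fourth 12 h array or the first or the third 24 h array.

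The breakdown of branched-chain amino acids and lysine feeds electrons to the respiratory chain. Of 8 tested genes of this pathway 5 fell and 0 rose, against 16.2% and 13.0% of all tested probe sets, with a median log2 change of -0.42. MCCA, MCCB, IVD, ETFQO and D2HGDH are also on the sugar starvation list, so the counts of these lists are not independent. ALDH6B2, a dehydrogenase of valine breakdown, read 347, 351, 342 and 370.3 at 12 h and 129.5, 236, 194 and 178 at 24 h. All 4 arrays at 24 h were below those at 12 h (log2 change -0.91, SE 0.13, adjusted p = 6.6e-06). ETFBETA, the electron transfer flavoprotein subunit that takes up the electrons, fell from 139.6 ± 7.42 to 75.7 ± 6.99 (SD, n = 4) (log2 change -0.76, SE 0.10, adjusted p = 8.7e-07). MCCA, a subunit of the carboxylase of leucine breakdown, fell by 0.65 (SE 0.12, adjusted p = 0.00016), and its 2 h mean was 27.5 ± 2.02 (SD, n = 4) against 29.7 ± 6.31 (SD, n = 4) at 24 h. IVD, ETFALPHA, MCCA, ALDH6B2 and ETFBETA were the called members, and the 2 h mean was nearer to 24 h than to 12 h in 4 of these 5.

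Autophagy carries cytoplasm to the vacuole in vesicles whose membranes bear ATG8 proteins. Of 9 tested autophagy genes 6 fell, 0 rose and 3 were not called, against 16.2% lower and 13.0% higher over all tested probe sets. The median log2 change was -0.55. All 9 tested genes belong to the ATG8 family, so no other step of autophagy was measured. ATG8E read 193, 166, 133 and 196 at 12 h and 109.5, 71.6, 69.6 and 44.0 at 24 h. The highest 24 h array remained below the lowest 12 h array, and the log2 change was -1.10 (SE 0.23, adjusted p = 0.00058). APG8H read 379, 338, 316 and 349 at 12 h and 189, 199, 157 and 155 at 24 h, and again the groups did not overlap (log2 change -0.93, SE 0.10, adjusted p = 3.9e-08). ATG8D fell by 0.74 (SE 0.11, adjusted p = 7.1e-06) and ATG8F by 0.64 (SE 0.13, adjusted p = 0.0003), while APG8A (log2 change -0.43) and ATG8C (-0.55) fell by less. In 5 of the 6 the 2 h mean was nearer to 24 h. ATG8 genes are alike in sequence, and cross-hybridisation between them was not tested.

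**Figure D3:**
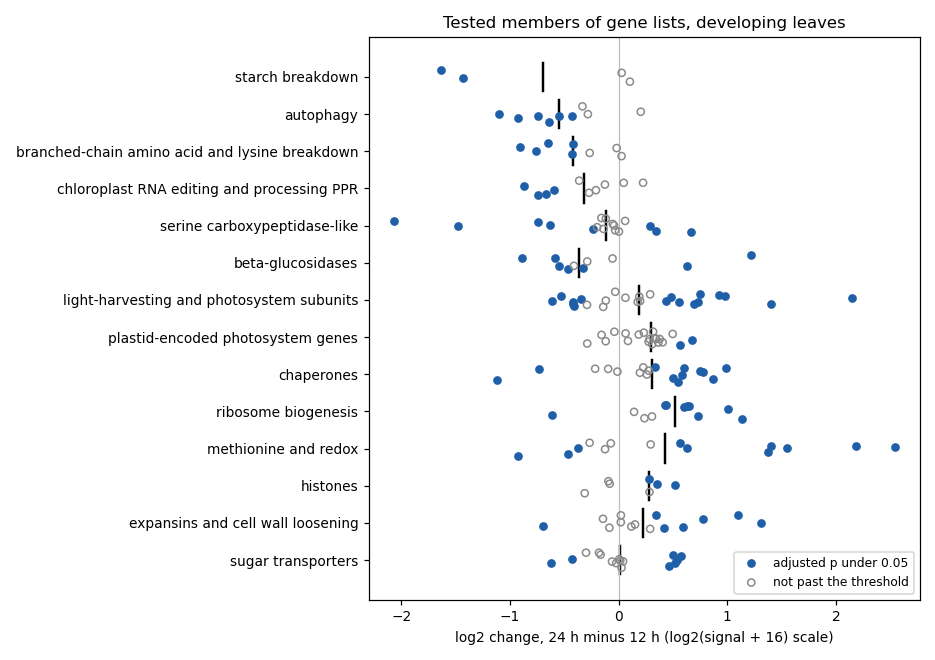
Log2 change between 24 h and 12 h (horizontal axis, log2(signal + 16) scale) of every tested member of 14 gene lists. Filled points passed an adjusted p of 0.05, open points did not, and the black bar is the list's median, which lies at -0.55 for autophagy and 0.52 for ribosome biogenesis. The ribosome biogenesis and the methionine and redox lists were drawn up after values had been seen. Points are offset vertically for legibility only.

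Components of the photosynthetic membranes moved in both directions. Of 25 tested nuclear genes for light-harvesting proteins, photosystem subunits and their assembly factors, 10 rose, 6 fell and 9 were not called. With quantile normalization 7 rose and 6 fell, and without the first 24 h array 8 rose and 7 fell. The median log2 change as reported was 0.19, and it was 0.10 without the first 24 h array and 0.12 with quantile normalization. The 3 genes for CP29, the monomeric antenna protein of photosystem II, differed. LHCB4.2 read 688, 562, 511 and 508 at 12 h and 3703, 1602, 2717 and 2643 at 24 h. The spread at 24 h was wide, and still every 24 h array lay above every 12 h array. LHCB4.2 rose by 2.15 (SE 0.17, adjusted p = 1.4e-10), back to its 2 h level of 2271 ± 299.9 (SD, n = 4). LHCB4.1 read 2229.6, 3022, 2563 and 1903 at 12 h and 5241, 2879.7, 3871 and 3899 at 24 h. Its ranges overlapped, and it passed the test with a rise of 0.69 (SE 0.17, adjusted p = 0.0032), which quantile normalization reduced to 0.12 and ended as a call. LHCB4.3, the isoform associated with long exposure to strong light, fell by 0.61, from 694 ± 108 to 447 ± 54.9 (SD, n = 4) (SE 0.11, adjusted p = 0.00015). At 24 h it was still above its 2 h mean of 324 ± 13.5 (SD, n = 4) (24 h minus 2 h 0.44 on the log2 scale, SE 0.11, adjusted p = 0.013).

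The members that rose were mostly structural subunits. CaS, a thylakoid calcium-sensing protein, read 505, 604, 385 and 443 at 12 h and 1907, 1217, 1207 and 989 at 24 h. It rose by 1.40 (SE 0.16, adjusted p = 6.8e-08). PSAN and PSAE-1, peripheral subunits of photosystem I, rose by 0.93 (SE 0.13, adjusted p = 3.7e-06) and 0.98 (SE 0.17, adjusted p = 5.2e-05). PSAE-1 read 1826, 2045, 1732 and 1692 at 12 h and 4493, 3918, 3383 and 2833 at 24 h, and all 24 h arrays were higher. PSBY and PSBW, small subunits of photosystem II, PSB27, which acts in its assembly and repair, TROL, which anchors a reductase at the thylakoid, and ATPC1, the gamma subunit of the chloroplast ATP synthase, rose by between 0.44 and 0.75. The members that fell besides LHCB4.3 were the NDH complex genes NdhN (-0.42) and NdhL (-0.53), the photosystem II assembly factors PAM68 (-0.41) and LPA2 (-0.34) and the cytochrome gene CYTC6A (-0.42), given as log2 changes. The 2 h mean was nearer to 24 h in 14 of the 16 called.

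Of 4 tested genes on the list for Rubisco and the carbon reduction cycle 3 rose, with a median log2 change of 0.47 that quantile normalization reduced to 0.11. RCA, Rubisco activase, read 2299, 2598, 2675 and 2234 at 12 h and 5543, 3032, 3758 and 3915 at 24 h and rose by 0.69 (SE 0.17, adjusted p = 0.0027). SBPASE and PRK, enzymes that regenerate the CO2 acceptor, rose by 0.50 and 0.44 (SE 0.17, adjusted p = 0.048). The gene not called was TPI (log2 change 0.14), which the gene table gives as the cytosolic triose phosphate isomerase. In 0 of these 3 was the 2 h mean nearer to 24 h than to 12 h, so they do not show a mid-course low state. With quantile normalization of the arrays 0 of the 3 passed the threshold, and RCA changed by 0.12. The mesophyll marker sum, made of RCA, LHCB4.1 and LHCB4.2, was 4645 to 6182 at 12 h and 7513 to 14487 at 24 h, and its part in these results was not tested.

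Few genes encoded in the chloroplast itself passed the test. Of 20 photosystem genes 2 were called, psbM and psaB, both higher, and the median log2 change was 0.30. The 10 NDH genes had a median of 0.21 and 0 calls in limma, while 1 had an unadjusted p under 0.05. On the list of chloroplast-encoded gene expression genes 22 were tested. It had 0 calls in limma, 3 genes with an unadjusted p under 0.05 and a median of 0.17. Of 15 genes for the cytochrome complex, ATP synthase and Rubisco, petB, atpE and atpB were called higher. atpE read 2706, 2974, 2899 and 2546 at 12 h and 5643, 3519, 3793 and 3645 at 24 h, and its first 24 h array was far above the other 3. Without that array 0 of these 15 and 1 of the 20 photosystem genes were called, and without the second 24 h array 6 and 10 were. Without the first 12 h array 1 of the 15 was called, and without the fourth 12 h array 1 of the 15 and 1 of the 20. Without the first 24 h array the medians of the photosystem genes, the NDH genes and the 15 genes were 0.13, 0.09 and 0.05. They were 0.52, 0.46 and 0.39 without the second 24 h array, and 0.19, 0.11 and 0.12 without the third 24 h array. That of the 22 gene expression genes was 0.10 without the first 24 h array and 0.34 without the second. Without the fourth 12 h array that of the 15 genes was 0.13. With quantile normalization 0 were called, and the median changes fell to 0.02 for both the photosystem and the NDH genes. They turned to -0.07 for the 15 genes and -0.01 for the 22 genes, and the change of atpE took the opposite sign, -0.12. Chloroplast transcripts mostly lack the poly(A) tails of nuclear ones, and the sources used here do not say how the RNA was primed.

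Among nuclear genes for pentatricopeptide repeat proteins that edit or process chloroplast RNA, those called all fell. Of 10 tested, 4 fell, 0 rose and 6 were not called, against 16.2% lower and 13.0% higher over all tested probe sets. The median log2 change was -0.32. OTP81 and OTP84, editing factors, fell by 0.87 (SE 0.17, adjusted p = 0.0003) and 0.67 (SE 0.10, adjusted p = 9e-06). CRR42 and CRR22, needed for the NDH complex, fell by 0.74 (SE 0.12, adjusted p = 1.5e-05) and 0.59 (SE 0.14, adjusted p = 0.0024). OTP81 read 60.2, 45.6, 50.0 and 54.3 at 12 h and 7.32, 33.7, 25.4 and 24.3 at 24 h. These were dim signals on these arrays, and the groups did not overlap.

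Chlorophyll synthesis split. PORB, a light-dependent protochlorophyllide oxidoreductase, read 1387, 1563, 1657 and 1569 at 12 h and 755, 735, 741 and 739.8 at 24 h. The 24 h arrays were nearly equal to one another and below every 12 h array. PORB fell by 1.04 (SE 0.14, adjusted p = 1.6e-06), to below its 2 h mean of 1158 ± 123 (SD, n = 4) (24 h minus 2 h -0.62 on the log2 scale, SE 0.14, adjusted p = 0.0039), and its highest mean was at 4 h, 2595 ± 122 (SD, n = 4). HEMA2, a glutamyl-tRNA reductase of the first committed step, fell by 0.74 (SE 0.09, adjusted p = 5.6e-07). HEME2, uroporphyrinogen decarboxylase, rose by 0.41 (SE 0.09, adjusted p = 0.00081), and CHLM, a magnesium-protoporphyrin methyltransferase, by 0.24 (SE 0.09, adjusted p = 0.043), a call lost under 11 of 16 other settings. Of 8 tested genes of chlorophyll and carotenoid synthesis, 4 were not called.

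Genes for making ribosomes were low at 12 h and recovered. This list was drawn up after values had been seen, so its counts are a description only. Of 12 tested genes 8 rose, 1 fell and 3 were not called, against 13.0% higher and 16.2% lower over all tested probe sets. The median log2 change was 0.52. NRPA2, the second largest subunit of RNA polymerase I, which transcribes ribosomal RNA, read 119.5, 123, 145 and 136 at 12 h and 230.4, 302, 285 and 299.9 at 24 h. The 24 h arrays were all above the 12 h arrays. NRPA2 rose by 1.00 (SE 0.10, adjusted p = 9.4e-09), to its 2 h mean of 277 ± 32.3 (SD, n = 4). NRPA1, the largest subunit, read 40.3, 57.5, 64.3 and 44.2 at 12 h and 87.1, 148, 154 and 146 at 24 h. The first 24 h array was the lowest of its group and still above every 12 h array (log2 change 1.13, SE 0.17, adjusted p = 8.1e-06). YAO, a nucleolar protein of ribosomal RNA processing, rose by 0.73 (SE 0.10, adjusted p = 2.8e-06), and RRP41, a subunit of the RNA exosome, by 0.63 (SE 0.12, adjusted p = 0.00016). AT5G14520 (PESCADILLO in the gene table), AT5G41190 (NOB1), AT5G52820 (NLE) and IMP4 rose by 0.43 to 0.65. DIM1B, an enzyme that modifies ribosomal RNA, was the member that fell (log2 change -0.61). In 8 of the 9 called the 2 h mean lay nearer to 24 h.

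RNA polymerase subunit genes did not move as a group. Of 11 tested, which include NRPA1 and NRPA2 of the ribosome list, 4 rose, 1 fell and 6 were not called. The shares over all tested probe sets were 13.0% higher and 16.2% lower. Besides NRPA1 and NRPA2, NRPB7 and NRPB12 rose, by 0.48 and 0.37. NRPE7, of the plant-specific RNA polymerase V, fell by 0.87 (SE 0.16, adjusted p = 0.00013). Without the second 12 h array 2 of the 11 rose and 2 fell, and without the second 24 h array 2 rose.

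Protein-folding genes rose in 9 of 18 tested cases, with 2 falls, 7 not called and a median log2 change of 0.31. The shares over all tested probe sets were 13.0% higher and 16.2% lower. Hop2, a co-chaperone that links Hsp70 and Hsp90, read 125, 115, 137 and 154 at 12 h and 239, 300.3, 246 and 333 at 24 h. It rose by 0.99 (SE 0.14, adjusted p = 1.9e-06) and was then near its 2 h mean of 255 ± 52.8 (SD, n = 4). BOB1, a small heat shock protein needed for development, rose by 0.87 (SE 0.10, adjusted p = 2.2e-07). Hsp70-2 rose by 0.78 (SE 0.13, adjusted p = 3.2e-05) and exceeded its 2 h mean of 141 ± 8.40 (SD, n = 4) (24 h minus 2 h 0.69 on the log2 scale, SE 0.13, adjusted p = 0.00075). Fes1A, Fes1B and Fes1C are exchange factors of Hsp70, and they split: Fes1A rose by 0.75, whereas Fes1B fell by 1.12 (SE 0.14, adjusted p = 5.7e-07) and Fes1C by 0.73. The chaperonin genes Cpn60beta2 and Cpn60beta3 of the chloroplast rose by 0.55 and 0.50.

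**Figure D4:**
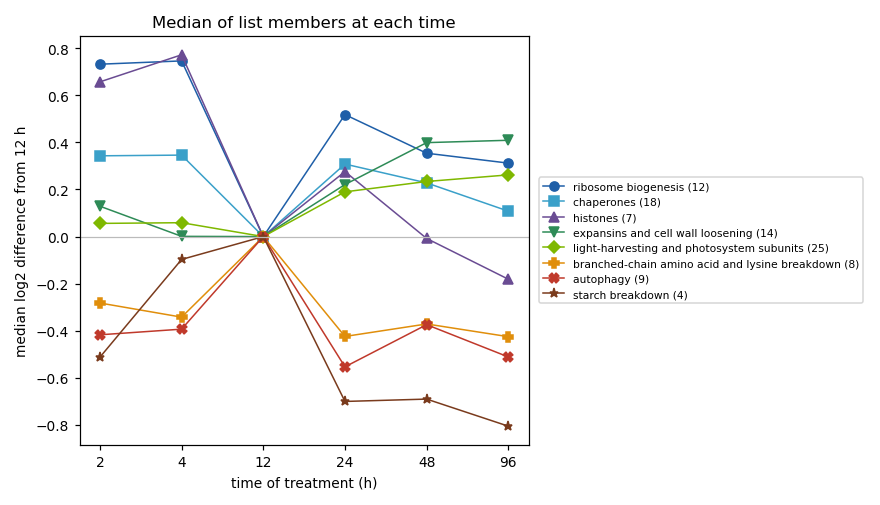
Median over the tested members of 8 gene lists (number of members in the legend) of the log2 difference between each time's mean and the 12 h mean, in developing leaves at 2 to 96 h of treatment (equally spaced positions). Ribosome biogenesis, chaperone and histone genes are above their 12 h level at 2 h and at 24 h, with medians of 0.73, 0.34 and 0.66 at 2 h. The histone median at 24 h was 0.28, and 0.06 without the first 24 h array. At both times autophagy, amino acid breakdown and starch breakdown genes are below their 12 h level. The ribosome biogenesis list was drawn up after values had been seen.

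Methionine and redox genes held some of the largest named rises. This list too was drawn up after values had been seen. Of 14 tested, 7 rose, 3 fell and 4 were not called, against 13.0% higher and 16.2% lower over all tested probe sets. MGL, methionine gamma-lyase, which cleaves methionine, read 10.7, 11.1, 11.7 and 21.2 at 12 h and 215, 131, 137 and 151 at 24 h. It was near the bottom of the scale at 12 h and well above its 2 h mean of 66.9 ± 7.24 (SD, n = 4) at 24 h. The rise was 2.54 (SE 0.14, adjusted p = 5.5e-14), and the difference from 2 h also passed the test (24 h minus 2 h 1.05 on the log2 scale, SE 0.14, adjusted p = 1.3e-05).

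Repair of oxidised methionine showed isoforms in opposite directions. MSRB6, a methionine sulfoxide reductase, read 89.8, 78.1, 54.7 and 52.0 at 12 h and 475, 353, 308 and 336 at 24 h, with a rise of 2.19 (SE 0.15, adjusted p = 5.9e-12). Its relative MSRB5 fell by 0.93 (SE 0.21, adjusted p = 0.0012). GR1, the extraplastidic glutathione reductase, read 155, 131, 135 and 166 at 12 h and 403, 459.9, 521 and 462 at 24 h. It rose by 1.55 (SE 0.13, adjusted p = 1.5e-10), above its 2 h mean of 279 ± 56.0 (SD, n = 4) (24 h minus 2 h 0.71 on the log2 scale, SE 0.13, adjusted p = 0.00041). GR, the organellar glutathione reductase, rose by 0.57 and TAPX, the thylakoid ascorbate peroxidase, by 0.62. AOR, a chloroplast enzyme that detoxifies reactive carbonyls, rose by 1.40 (SE 0.10, adjusted p = 3.1e-11). SAMDC, the decarboxylase that commits S-adenosylmethionine to polyamines, rose by 1.38 (SE 0.10, adjusted p = 3.5e-11). SRX, sulfiredoxin, and MSRA5 fell by 0.47 and 0.38, and without the first or the fourth 12 h array or the third 24 h array 1 of the 3 falls on the list was called.

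Transport and respiration contributed single large rises. AT3G21670, which the gene table names NPF6.4, of the nitrate and peptide transporter family, read 54.9, 46.4, 20.4 and 36.7 at 12 h and 489, 545, 516 and 513 at 24 h. The level at 12 h was below that of any array at 24 h by a wide margin, and the rise was 3.30 (SE 0.16, adjusted p = 2.6e-15). Its 2 h mean was 364 ± 30.4 (SD, n = 4), and the 24 h level was not called different from it (24 h minus 2 h 0.49 on the log2 scale, SE 0.16, adjusted p = 0.053). CYTC-2, one of the mitochondrial cytochrome c genes, read 51.6, 46.9, 47.7 and 52.9 at 12 h and 291, 236, 299.9 and 315 at 24 h. It rose by 2.19 (SE 0.13, adjusted p = 4.3e-13). Of 17 tested genes of the tricarboxylic acid cycle and respiratory chain 2 rose, 3 fell and 12 were not called. These counts lie near the shares over all tested probe sets, 13.0% higher and 16.2% lower. ACLA-3, a subunit of the cytosolic citrate lyase, fell by 0.66 (SE 0.11, adjusted p = 3.1e-05). cICDH, the cytosolic isocitrate dehydrogenase, fell from 1224 ± 91.5 to 922 ± 61.2 (SD, n = 4) (log2 change -0.40, SE 0.08, adjusted p = 0.0005), short of its 2 h mean of 689 ± 19.6 (SD, n = 4) (24 h minus 2 h 0.41 on the log2 scale, SE 0.08, adjusted p = 0.0016).

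The largest named rise was that of AT5G12110, which read 50.0, 56.3, 43.0 and 46.2 at 12 h and 723, 988, 629.7 and 585 at 24 h. At 2 h its mean had been 218 ± 17.6 (SD, n = 4), so that the 24 h level went beyond the earlier one (24 h minus 2 h 1.65 on the log2 scale, SE 0.14, adjusted p = 1.1e-08). The rise from 12 h was 3.50 (SE 0.14, adjusted p = 5.4e-17). AT1G13650 was close to the bottom of the scale at 12 h and rose to 152 ± 15.5 (SD, n = 4), equal to its 2 h mean of 152 ± 50.6 (SD, n = 4) within the spread. Of the 12 largest named rises, 5 ended within 0.25 of the step of the 2 h mean and 7 ended higher than that. AT5G12110 and AT1G13650 carry no name beyond the locus code.

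Sugar transporters moved in both directions. Of 16 tested, 5 rose, 2 fell and 9 were not called, against 13.0% higher and 16.2% lower over all tested probe sets. The median was 0.01. SWEET17 and SWEET16, fructose facilitators of the vacuolar membrane, rose by 0.54 (SE 0.13, adjusted p = 0.0022) and 0.52 (SE 0.14, adjusted p = 0.0063). TMT1, which loads sugars into the vacuole, fell by 0.62 (SE 0.10, adjusted p = 2.8e-05), to its 2 h mean of 188 ± 12.6 (SD, n = 4). SWEET2 rose by 0.57 (SE 0.13, adjusted p = 0.0014) from a 12 h mean of 76.9 ± 9.56 (SD, n = 4) that equalled its 2 h mean of 79.7 ± 4.34 (SD, n = 4) within the spread.

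Expansins loosen the wall of growing cells. Of 14 tested genes of wall loosening 6 rose, 1 fell and 7 were not called, with a median log2 change of 0.22. The shares over all tested probe sets were 13.0% higher and 16.2% lower. EXPB1 read 37.0, 30.1, 48.7 and 33.0 at 12 h and 126, 91.8, 127 and 119.7 at 24 h. Its groups did not overlap (log2 change 1.31, SE 0.13, adjusted p = 9.7e-09), and the 24 h mean was above the 2 h mean of 81.9 ± 8.13 (SD, n = 4) (24 h minus 2 h 0.43 on the log2 scale, SE 0.13, adjusted p = 0.04). EXPB3 rose by 1.1 (SE 0.12, adjusted p = 8.2e-08), the expansin-like gene EXLA2 by 0.77 (SE 0.19, adjusted p = 0.0031) and EXPA15 by 0.60 (SE 0.15, adjusted p = 0.0041). EXPA20 fell by 0.70, from 58.1 ± 16.3 to 28.8 ± 3.31 (SD, n = 4) (SE 0.15, adjusted p = 0.0008). It matched its 2 h level of 29.2 ± 5.41 (SD, n = 4).

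Some histone and replication genes rose. Of 7 tested histone genes 3 rose, 1 without either of the first 2 arrays at 12 h, and 4 were not called. Their median log2 change of 0.28 was 0.06 without the first 24 h array and 0.18 without the fourth 12 h array. HTB4, a histone H2B gene, read 362, 283, 298 and 305 at 12 h and 493, 404, 454 and 461 at 24 h. It rose by 0.52 (SE 0.10, adjusted p = 0.00031), but stayed below its 2 h mean of 603 ± 74.4 (SD, n = 4) (24 h minus 2 h -0.40 on the log2 scale, SE 0.10, adjusted p = 0.013). HTR12, the centromeric histone H3, and HTB1 rose by 0.35 and 0.28. POLA3, a subunit of the DNA polymerase alpha and primase complex, read 95.1, 97.6, 97.4 and 92.1 at 12 h and 158, 193, 196 and 194 at 24 h, and the 24 h arrays were all higher (log2 change 0.85, SE 0.11, adjusted p = 1.1e-06). PRL, PROLIFERA, a subunit of the replicative helicase, rose by 0.54 (SE 0.13, adjusted p = 0.0024).

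On the list of cell division and replication genes, which holds POLA3 and PRL, 3 of 13 fell and 2 rose. Its median log2 change was -0.19, and over all tested probe sets 16.2% were lower and 13.0% higher. TUB5, a beta-tubulin, read 593, 603, 622 and 669 at 12 h and 157, 193, 233 and 151 at 24 h. It fell by 1.69 (SE 0.12, adjusted p = 6.1e-12), to below its 2 h mean of 381 ± 37.1 (SD, n = 4) (24 h minus 2 h -1.01 on the log2 scale, SE 0.12, adjusted p = 1.4e-06). TUB9, a beta-tubulin that is not on that list, fell by 0.48 (SE 0.10, adjusted p = 0.00032), and of 7 tested tubulin genes TUB5 and TUB9 fell and 5 were not called. 3xHMG-box2, a chromatin protein of dividing cells, fell by 0.58 (SE 0.17, adjusted p = 0.0092) from a 12 h level that equalled the 2 h one within the spread, and AUR1, a mitotic kinase, fell by 0.33 (SE 0.12, adjusted p = 0.049). SPCH, SPEECHLESS, which starts the stomatal lineage, read 55.2, 57.8, 108 and 95.9 at 12 h and 89.8, 124, 115 and 153 at 24 h. Its ranges overlapped, and it passed the test with a rise of 0.54 (SE 0.17, adjusted p = 0.014), a call lost when either of the first 2 arrays at 12 h, the fourth at 24 h or the other 5 groups were left out. STOMAGEN, a signal that raises stomatal density, and FMA, which acts at the last division of the lineage, were not called, at 0.14 and -0.08 on the log2 scale.

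HYH, a light-signalling factor related to HY5, differed in form from the reversals above. It read 24.6, 28.8, 16.1 and 26.2 at 12 h and 118, 127, 113 and 99.8 at 24 h. At 2 h its mean was 28.7 ± 3.42 (SD, n = 4), like the 12 h mean of 23.9 ± 5.48 (SD, n = 4), and the higher level was first seen at 24 h, with a mean of 99.1 ± 5.61 (SD, n = 4) at 48 h. It rose by 1.71 over 12 h (SE 0.14, adjusted p = 1.5e-10), and it was also above 2 h (24 h minus 2 h 1.54 on the log2 scale, SE 0.14, adjusted p = 2.2e-08). The flavonoid glycosyltransferases UGT78D2 and UGT78D1 were also near their 12 h level at 2 h, with means of 193 ± 20.5 (SD, n = 4) and 235 ± 40.3 (SD, n = 4) at 2 h. UGT78D2 rose from 161 ± 13.4 to 293 ± 59.5 (SD, n = 4) (log2 change 0.79, SE 0.17, adjusted p = 0.00077) and UGT78D1 by 0.55 (SE 0.16, adjusted p = 0.0095). DFR, dihydroflavonol reductase, read 50.7, 58.0, 108 and 39.4 at 12 h and 104, 179, 131 and 164 at 24 h. It rose by 1.05 (SE 0.21, adjusted p = 0.00031), its ranges overlapped, and its 2 h mean of 98.0 ± 9.78 (SD, n = 4) was nearer to 24 h. Of 5 tested genes on the flavonoid list these 3 rose. UF3GT (log2 change 0.73) and CHI (0.17) were not called, and the gene table gives CHI, at AT2G43570, as a putative chitinase. TBL26, of the family that acetylates wall polymers, rose by 2.22 (SE 0.19, adjusted p = 4.3e-10) from a 12 h mean of 59.2 ± 16.6 (SD, n = 4), and its 24 h mean was above the 2 h mean of 113 ± 22.9 (SD, n = 4) (24 h minus 2 h 1.44 on the log2 scale, SE 0.19, adjusted p = 1.1e-05). HPR, the peroxisomal hydroxypyruvate reductase of photorespiration, differed by 0.33 between 12 h and 2 h (log2 scale, adjusted p = 0.062, not called) and rose between 12 h and 24 h, with means of 1085 ± 34.8 (SD, n = 4), 1378 ± 220.2 (SD, n = 4) and 1947 ± 469 (SD, n = 4) at 2, 12 and 24 h (log2 change 0.48, SE 0.13, adjusted p = 0.0061). Quantile normalization reduced that change to 0.19 and ended the call.

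Incomplete returns were seen among cytochrome P450 genes. CYP71B26 read 11.4, 21.1, 20.9 and 23.6 at 12 h and 45.1, 88.3, 87.2 and 99.0 at 24 h. The rise of 1.42 (SE 0.16, adjusted p = 4.6e-08) left it below its 2 h mean of 224 ± 18.1 (SD, n = 4) (24 h minus 2 h -1.36 on the log2 scale, SE 0.16, adjusted p = 1.1e-06). CYP71B22 fell by 1.19, from 288 ± 68.3 to 119 ± 44.6 (SD, n = 4) (SE 0.22, adjusted p = 0.00011), and stayed above its 2 h mean of 58.5 ± 17.8 (SD, n = 4) (24 h minus 2 h 0.83 on the log2 scale, SE 0.22, adjusted p = 0.013). Of 12 tested P450 genes 1 rose, 5 fell and 6 were not called, against 13.0% higher and 16.2% lower over all tested probe sets. All of them except CYP78A9 belong to the CYP71B subfamily, so the counts do not describe P450 genes at large. No substrate of these enzymes is named in the annotation.

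Enzymes that act in vacuoles and walls included some of the larger falls. SCPL49, a serine carboxypeptidase-like protein, read 713, 768, 665 and 684 at 12 h and 149.5, 107, 179 and 206 at 24 h. It fell by 2.07 (SE 0.14, adjusted p = 3.6e-12), to its 2 h level of 166 ± 23.2 (SD, n = 4). scpl35 read 686, 889, 936 and 855 at 12 h and 268, 300.4, 262 and 331 at 24 h and fell by 1.48 (SE 0.16, adjusted p = 3e-08). Both were high on all 12 h arrays. Of 17 tested genes of this family 5 fell, 3 rose and 9 were not called. Among 10 beta-glucosidases 5 fell, 2 rose and 3 were not called. For both families the shares to set beside these counts are 16.2% lower and 13.0% higher over all tested probe sets. BGLU40 rose by 1.22 (SE 0.11, adjusted p = 8e-10), and BGLU15 fell by 0.89 (SE 0.16, adjusted p = 9.3e-05). BGLU44 fell from 833 ± 31.9 to 565 ± 57.3 (SD, n = 4) (log2 change -0.55, SE 0.12, adjusted p = 0.00073), with a 2 h mean of 896 ± 58.4 (SD, n = 4) that was as high as at 12 h.

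Hormone and defence genes were thinly covered. GID1A, a gibberellin receptor, fell by 1.04 (SE 0.24, adjusted p = 0.0016), and RR16, a negative regulator of cytokinin responses, by 0.78 (SE 0.14, adjusted p = 0.00012), of 4 tested on their list. COR15B, a cold-induced chloroplast protein, fell by 0.83 (SE 0.15, adjusted p = 0.00013). LCR69, a defensin-like peptide, read 2261, 2415, 3060.4 and 2028 at 12 h and 919, 1084, 993 and 1049 at 24 h and fell by 1.24 (SE 0.11, adjusted p = 7.2e-10). THI2.2, a thionin, read 37.6, 9.24, 16.7 and 37.1 at 12 h and 87.2, 178, 149.8 and 142 at 24 h, with a rise of 1.95 (SE 0.33, adjusted p = 3.6e-05). Both returned to near the 2 h means, which were 837 ± 122 (SD, n = 4) for LCR69 and 121 ± 38.3 (SD, n = 4) for THI2.2. BCAT4, which opens the chain elongation of methionine for glucosinolates, rose by 0.99 (SE 0.17, adjusted p = 6.1e-05), and GSTU20, a glutathione transferase linked to them, by 0.66 (SE 0.15, adjusted p = 0.0012).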

How the data were processed

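Leaf RNA was read on ATH1 arrays. Per the submitters' processing notes, the authors made the deposited signal intensities, which are on a linear scale, with MAS5 (version not given). Each deposited intensity column has a trimmed mean of 100, which shows a global scaling. No detection calls were used.

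Array titles gave the groups. After the transform log2(value + 16), which compresses changes of dim probe sets, those above the 40th percentile of an array on 2 or more arrays were tested (16154 of 22810). Means of 7 groups over 26 arrays were fitted in limma 3.58.1 under R 4.3.3 (lmFit, eBayes with a trend), with Benjamini-Hochberg adjustment across all probe sets tested and a threshold of 0.05. The 95% interval of a log2 change reached a median of 0.27 to either side, and the number of arrays limits the precision. Simulated data for 24 h versus 12 h over the 16154 probe sets gave back 29 of 50 changes of 0.5 on the log2 scale, 49 of 50 changes of 1 and all 50 of 2. There were 13 false calls. The simulation changed far fewer probe sets than the 4729 called in the data. The adjustment is stricter in that case, so these rates do not carry over directly. The contrasts with 2 h and 48 h share arrays with that of 24 h and 12 h.

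A platform annotation, updated through a gene table of assembly TAIR10.1, gave the names: 8984 tested probe sets carried 1 gene, 319 carried several and 6851 were unlisted, and only the first kind was named. A gene on several probe sets counts through the brightest. The comparison and the gene lists were chosen with earlier results of these data known. The lists of ribosome biogenesis and of methionine and redox genes were drawn up after values had been seen. Many lists were covered in small part. The 57 lists held 1274 entries, where a gene on several lists counts once for each. On them 463 different genes had a tested probe set. Named genes passed the threshold without overlap between the arrays, with the higher of both group means above the median over probe sets. They are the 12 largest rises, the 12 largest falls, up to 4 members per list, and a few clock, stomatal and CP29 genes. Further list members are given by log2 change. Alternatives were an added constant of 4 or 64, no filter or a stricter one, quantile normalization, array weights, a block for replicate number, a fit of 12 h and 24 h alone, and leaving out each array.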

Additional observations from a re-analysis of the deposited data

Results flagged for a closer look

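Within groups of 4 arrays, single arrays stood apart from the other 3, by a gap that, as a share of the group's range, was above Dixon's 95% critical value for 4 samples. Of 284 groups of gene signals looked at, 23 held such an array, where chance gives about 1 in 20. The first 24 h array was the one that stood apart in 10 of the 23. Its 25S ribosomal RNA control, at 4449 against a group median of 66.9, stood apart too.

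On that array the highest of 4 readings were those of AT1G13650 (175), COR27 (6.65), AT2G21130 (66.7), GI (59.3), HPR (2649.6) and atpE (5643), and the lowest were those of POLA3 (158), NRPA1 (87.1), UGT74D1 (110.4) and WLIM2a (62.6). Without this array every one of these genes except atpE kept its direction and its call at 24 h versus 12 h.

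The second 24 h array read lowest for AT5G15950 (188) and SCPL34 (24.8) and highest for RRP41 (266). The third 24 h array read lowest for SWEET17 (242) and the fourth highest for BOB1 (331). At 12 h, the second array read highest for AT1G13650 (11.8) and UGT78D2 (181), the third highest for EXPA15 (122.0) and YAB3 (226), and the fourth highest for MGL (21.2) and UGT85A4 (66.9) and lowest for AT3G01060 (49.8) and cICDH (1088). On the fourth 12 h array the ratio of 3′ to 5′ signal of GAPDH was lowest, at 0.805.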

How the results depend on the processing

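The count of 4729 called probe sets lay between 3909 (a fit of 12 h and 24 h alone) and 5440 (array weights) under the settings that kept all arrays, and between 4009 and 4518 when 1 array was left out. Without the first 24 h array it was 4459, of which 4032 were among the reported calls. The mid-course count of 5360 lay between 4526 and 5427, and the 3630 called probe sets with the 2 h mean nearer to 24 h lay between 3113 and 3434, with 1 array left out. Of 139 named genes that were called, 124 kept their direction and their call in all 16 settings, and EXPA20 and IVD in the 15 in which they were tested. The exceptions were ARA12, BZIP53, CHLM, GSTL3, GSTU18, HPR, LHCB4.1, RCA, SPCH, YAB3, atpE, petB and psbM, and for LHCB4.1, RCA, HPR and psbM quantile normalization was the setting that ended the call; the cause was not tested. That setting reversed 1 gene, atpE, to -0.122. With the replicate block 4946 probe sets were called. Deviations of same-numbered arrays at 12 h and 24 h correlated at 0.114, 0.016, -0.005 and 0.121 for replicates 1 to 4, so the numbers were not taken to pair the samples. Depth here means signal: for dim probe sets the added constant sets the size of a change, so that of AT1G13650 ranged from 1.66 to 4.39 on the log2 scale.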

Other observations

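Several genes with large changes belong to no list above and are described here by their values, having been chosen after those values were seen. PDC2, a pyruvate decarboxylase of fermentation, read 177, 136, 159 and 118 at 12 h and 28.4, 9.04, 22.7 and 32.8 at 24 h (log2 change -2.09, SE 0.22, adjusted p = 2.1e-08). It was high at 12 h on all arrays and dim at 24 h. WLIM2a and WLIM1, proteins that bundle actin filaments, fell by 1.59 (SE 0.10, adjusted p = 2.1e-12) and 1.30 (SE 0.10, adjusted p = 8.9e-11). WLIM2a read 264, 227, 285 and 205 at 12 h and 62.6, 74.0, 72.3 and 72.3 at 24 h, and its 24 h mean was below its 2 h mean of 169 ± 22.3 (SD, n = 4) (24 h minus 2 h -1.09 on the log2 scale, SE 0.10, adjusted p = 5.5e-08). FTSZ2-1, a ring protein of chloroplast division, fell by 0.77 (SE 0.08, adjusted p = 3.9e-08). The 2 lipocalins of the plant, which protect membranes from lipid oxidation, moved in opposite directions: CHL, in the chloroplast, fell from 596 ± 45.0 to 183 ± 30.2 (SD, n = 4) (log2 change -1.63, SE 0.12, adjusted p = 1.3e-11), and TIL, at the plasma membrane, rose from 301 ± 34.1 to 641 ± 19.9 (SD, n = 4) (log2 change 1.06, SE 0.09, adjusted p = 2.8e-10). TIL ended at its 2 h mean of 627 ± 47.5 (SD, n = 4).

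THIC, the enzyme that makes the pyrimidine part of thiamine, read 677, 967, 669 and 605 at 12 h and 321, 317, 276 and 365 at 24 h. It fell by 1.13 (SE 0.12, adjusted p = 1.7e-08), short of its 2 h mean of 210.0 ± 25.7 (SD, n = 4) (24 h minus 2 h 0.57 on the log2 scale, SE 0.12, adjusted p = 0.0017). AFR, a component of far-red light signalling, read 33.3, 29.5, 35.6 and 33.7 at 12 h and 128, 140.3, 117 and 142 at 24 h and rose by 1.59 (SE 0.13, adjusted p = 9.8e-11), beyond its 2 h mean of 65.1 ± 12.9 (SD, n = 4) (24 h minus 2 h 0.88 on the log2 scale, SE 0.13, adjusted p = 3.1e-05). WSD1, a wax ester synthase, rose by 1.50 (SE 0.19, adjusted p = 3.9e-07). EIF4A-2, an RNA helicase of translation initiation, was low at 12 h and rose from 586 ± 20.0 to 1025 ± 97.8 (SD, n = 4) (log2 change 0.79, SE 0.08, adjusted p = 2.9e-08), to its 2 h mean of 1002 ± 77.7 (SD, n = 4). SGT1A, a co-chaperone of immune receptors, read 91.5, 107, 82.6 and 85.6 at 12 h and 200.2, 173, 254 and 237 at 24 h. Its 12 h mean was near the 2 h mean of 110.4 ± 16.3 (SD, n = 4), and the rise of 1.1 (SE 0.15, adjusted p = 1.6e-06) went beyond both.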
